A study of Mus musculus with 4 samples.

Results

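The 39 genes described here encode the aminoacyl-tRNA synthetases of the mouse and the scaffold proteins that hold several of them together. They were chosen by symbol, and all 39 were found among the 24411 genes listed for each library. Of these, 20 are cytosolic enzymes, 16 are mitochondrial enzymes with a symbol ending in 2, and 3 are the scaffold genes Aimp1, Aimp2 and Eef1e1. Polyadenylated RNA was sequenced from late two-cell embryos of the ICR strain in 4 libraries of 10 pooled embryos each, collected at 36 h post-insemination (hpi). The embryos came from in vitro fertilization, and those of 2 libraries were cultured with 6 µM 10074-G5 from the one-cell stage. 10074-G5 is a small molecule that binds MYC and prevents its dimerization with MAX, the partner MYC needs to bind DNA. The embryos of the other 2 libraries were cultured with DMSO, the solvent of the inhibitor, over the same period, whose start is 3 hpi in the sample protocol and 6 hpi in the series design.

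Each aminoacyl-tRNA synthetase joins an amino acid to its tRNAs, and the charged tRNA then carries that amino acid to the ribosome. Cytosolic and mitochondrial translation mostly use separate enzymes, although Gars and Kars encode both forms of their enzyme from a shared gene. In the cytosol, the synthetases Dars, Eprs, Iars, Kars, Lars, Mars, Qars and Rars form the multisynthetase complex with the scaffold proteins encoded by Aimp1, Aimp2 and Eef1e1. Eprs is a fused enzyme that charges both glutamate and proline tRNAs, and cytosolic phenylalanyl-tRNA synthetase is built from the subunits encoded by Farsa and Farsb. Several synthetase genes are textbook targets of ATF4, the transcription factor of amino acid shortage, and genes of protein synthesis are among the known targets of MYC.

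The libraries held between 18206584 and 20718690 estimated fragments. Levels are given as FPKM (fragments scaled to the length of the transcript and the size of the library), which can be compared between genes, and differences as log2FC from TMM-normalized counts, with its standard error (SE), where a negative value means lower in 10074-G5-treated embryos. Of 16 oocyte genes and 15 two-cell genes taken as markers, all were detected with at least 3 fragments in every library. Of 13 cumulus and granulosa cell markers, 6 (Ptx3, Inhba, Inha, Amh, Foxl2 and Pgr) were at 0 in all libraries, and the summed level of the 13 lay between 0.75 and 5.38 FPKM in control and between 3.02 and 6.68 FPKM in treated embryos. DMSO replicate 1 stood apart, lying farther from the mean of the treated libraries than DMSO replicate 2 for 10454 of the 13549 tested genes and for 29 of the 36 tested members. Its oocyte and two-cell markers also differed from the other libraries. Each gene centred on its mean log2 level over the libraries, the oocyte markers had a median of -0.98 in DMSO replicate 1, 0.05 in DMSO replicate 2, 0.35 in treated replicate 1 and 0.42 in treated replicate 2. The two-cell markers had medians of -1.13, 0.22, 0.45 and 0.49 in the same order. Not all markers followed these medians. Of the 16 oocyte markers, 3 (Zp3, Khdc3 and Dppa3) were higher in DMSO replicate 1 than in DMSO replicate 2, as were 3 of the 15 two-cell markers (Dppa2, Dppa4 and Eif1a). The part that the oocyte and two-cell markers had in the results below was not tested, and the values of the classes, the lists and the genes described in full are also given without DMSO replicate 1. All levels are relative to the RNA of the library. Fewer transcripts of a gene per embryo thus cannot be told apart from more RNA of other genes.

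The sequence upstream of the transcription start is shown first for members that hold a motif of MYC or ATF4, because these are the regulators that the treatment and the background point to. The promoter table of RefSeq (GRCm38.p6) covers 250 bases before to 50 after each start and holds 30 of the 39 members. It has no entry for Cars, Hars, Lars, Nars, Rars, Vars, Wars, Hars2 and Pars2. The E-box CACGTG, bound by MYC and MAX, occurred in the windows of 5 of the 30 members, Aars, Farsb, Iars, Tars and Ears2, against 8.09% of all 27025 genes of the table. The CARE element TGATGNAA, bound by ATF4 with its C/EBP partners and searched on both strands, occurred in 5 of the 30, Aars, Gars, Iars, Tars and Yars, against 4.51% of all genes. All of the CARE matches were in the 13 cytosolic enzymes of the table and none in the 14 mitochondrial or the 3 scaffold genes. The stretches below run 5′ to 3′ on the gene's own strand and end at the last base before the start, with the motif in capitals. Eef1e1, the member with the smallest unadjusted p by edgeR, is shown as an example whose window has no match to either motif.
Aars, chr8:111033682-111033841, plus strand, with an E-box and a CARE element: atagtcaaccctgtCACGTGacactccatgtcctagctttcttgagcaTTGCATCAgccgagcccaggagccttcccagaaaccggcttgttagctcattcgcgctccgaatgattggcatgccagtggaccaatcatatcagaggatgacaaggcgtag
Gars, chr6:55037921-55038000, plus strand, with a CARE element: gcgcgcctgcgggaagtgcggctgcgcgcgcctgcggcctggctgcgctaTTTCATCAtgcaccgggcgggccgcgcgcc
Tars, chr15:11399659-11399738, minus strand, with a CARE element: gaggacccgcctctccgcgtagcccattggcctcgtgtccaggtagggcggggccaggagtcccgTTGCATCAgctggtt
Iars, chr13:49682030-49682129, plus strand, with an E-box: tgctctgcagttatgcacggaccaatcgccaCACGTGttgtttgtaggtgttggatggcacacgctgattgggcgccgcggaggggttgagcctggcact
Farsb, chr1:78488898-78488977, minus strand, with an E-box: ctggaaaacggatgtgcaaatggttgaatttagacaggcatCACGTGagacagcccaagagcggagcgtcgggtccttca
Eef1e1, chr13:38659029-38659148, minus strand, with neither motif: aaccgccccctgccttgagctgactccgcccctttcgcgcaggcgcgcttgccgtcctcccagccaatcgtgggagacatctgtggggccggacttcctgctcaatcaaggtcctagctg

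In control embryos the transcripts of the scaffold genes and of a few synthetases were far more abundant than those of the rest. Aimp2 had the highest mean of the 39 members with 282 ± 54.4 FPKM (SD, n = 2), followed by Eef1e1 with 217 ± 100.1 FPKM (SD, n = 2) and Rars with 193 ± 33.5 FPKM (SD, n = 2). The spread between the control replicates did not separate these 3 genes from each other. Dars, Kars, Nars, Lars2, Iars and Farsb followed with means between 40.3 and 70.5 FPKM. The mean was over 10 FPKM for 10 of the 20 cytosolic but 2 of the 16 mitochondrial enzymes, Lars2 and Cars2, and the median over the enzymes was 13.5 FPKM for the cytosolic and 3.30 FPKM for the mitochondrial class. Under 1 FPKM were Vars among the cytosolic and Nars2, Iars2, Pars2, Aars2 and Vars2 among the mitochondrial genes. Rars, Aimp2 and Eef1e1 together held 57.05% and 52.8% of the summed FPKM of the 39 members in the control replicates, against 40.1% and 41.2% in the treated libraries. The plot of levels by library shows this order, with the treated values of these 3 genes below both control values.

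**Figure D1:**
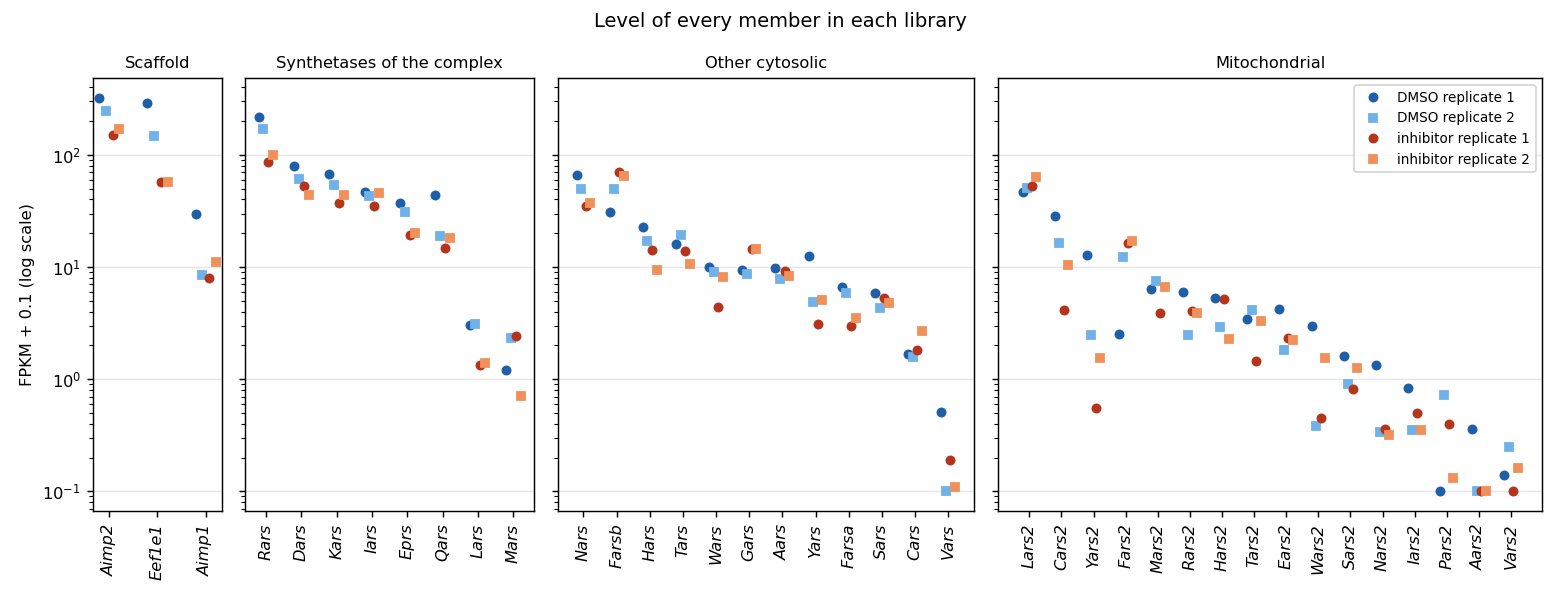
FPKM + 0.1 on a log axis for the 39 members, 1 point for each of the 4 libraries, ordered by mean level in the DMSO libraries within each class. The 2 red treated points lie below the 2 blue control points for Eef1e1, Aimp2 and Rars, above them for Farsb and Gars, and overlap them for most mitochondrial enzymes.

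Of the 39 members, 36 passed the filter on low counts, and 31 of these 36 had a lower and 5 a higher estimate in treated embryos. Below 0 were 48.5% of all tested genes. The median log2FC was -0.82 over the tested members and 0.04 over all 13549 tested genes. After adjustment over all genes (Benjamini-Hochberg), the quasi-likelihood test of edgeR called none of the members and 0.0% of all genes. An unadjusted p under 0.05 was found for 7 members, each lower in treated embryos (Eef1e1, Aimp2, Rars, Eprs, Lars, Cars2 and Yars2), where 10.1% of all genes were lower at this p. No member was higher at this p, against 4.72% of all genes. Both treated libraries lay below both control libraries for 17 of the 36 members (28.3% of all genes) and above them for 3 (28.9% of all genes). DESeq2, the tool of the study, called Eef1e1 down-regulated when given the transcript lengths, as the only member among the 2.36% of all genes called down-regulated, and no member among the 0.456% called up-regulated. On the same genes without the lengths it called 2 members (2.4% of all genes), Eef1e1 and Cars2, and none up-regulated (0.478%). On the 13549 genes of the edgeR test it called 3 (3.48% of all genes), Eef1e1, Cars2 and Rars, and none up-regulated (0.701%). Several members, among them Yars2, had no adjusted p from DESeq2 and could not be called by it. With transcript lengths DESeq2 put the log2FC of Yars2 at -3.26 (unadjusted p = 0.000868 by DESeq2). edgeR without a filter on low counts called Eef1e1, Cars2 and Yars2 lower (2.63% of all genes) and no member higher (0.906%). With the replicate number as a block edgeR called no member, against 0.236% of all genes lower and 0.0886% higher, and at an unadjusted p under 0.05 it had 4 members lower (6.66% of all genes) and 1 higher (6.61%).

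DMSO replicate 1 was singled out by its distance from the treated libraries, so smaller differences without it follow from that choice. Which control replicate is atypical was not tested. Leaving out DMSO replicate 1 brought most members nearer to 0. The median log2FC of the members was then -0.35, and 22 of 37 had a lower estimate, against 47.0% of all genes. An unadjusted p under 0.05 remained for 4 of the 7 members, Eef1e1, Aimp2, Rars and Eprs, all lower, where 7.36% of all genes were lower at this p. No member was higher at this p (6.44% of all genes). None was called without this library, against 0.00679% of all genes in each direction. Leaving out DMSO replicate 2 instead gave a median of -1.16, with 13 members called lower (14.1% of all genes) and 1, Fars2, called higher (14.6% of all genes) by edgeR.

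**Figure D2:**
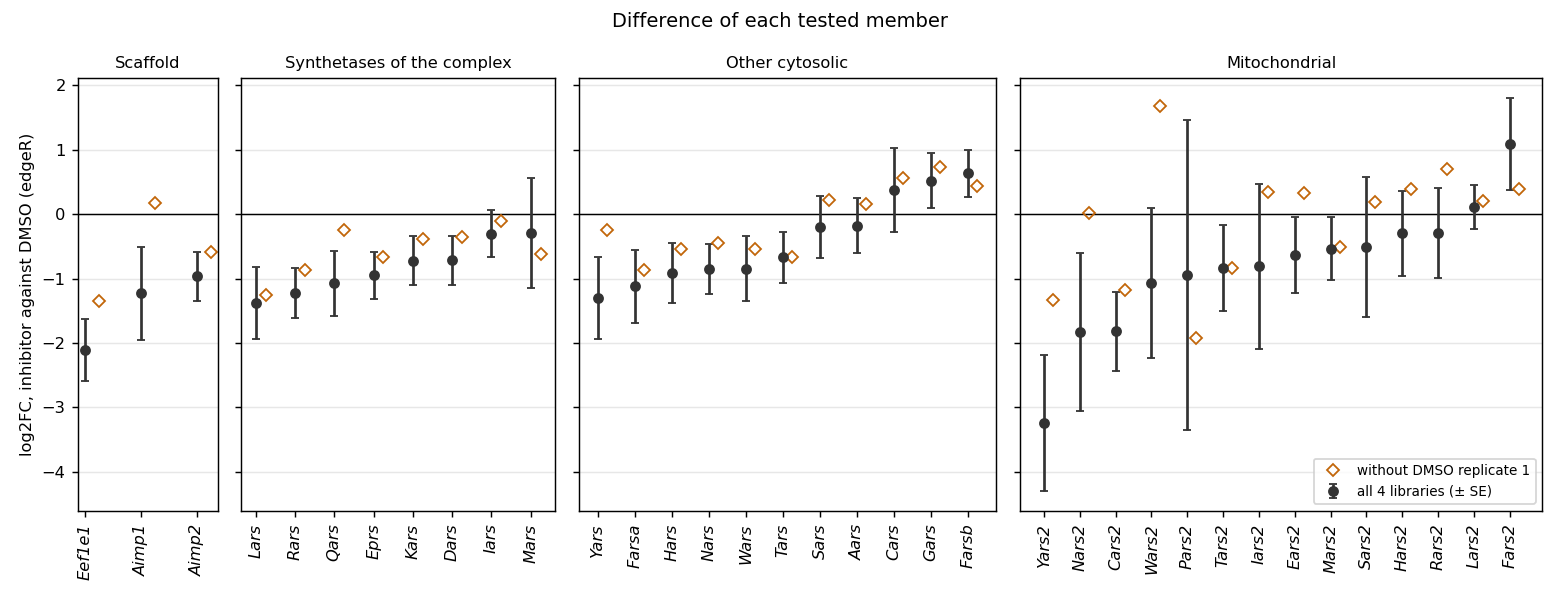
log2FC of the 36 tested members by edgeR, with bars of 1 standard error (filled points), and the same value without DMSO replicate 1 (open diamonds). Without that library the values of Eef1e1, Lars, Rars, Eprs, Mars, Farsa, Tars, Cars2, Yars2, Tars2 and Pars2 lie below 0 by more than 0.6. Those of Aimp1, of Aars, Cars, Farsb, Gars and Sars, and of 9 mitochondrial enzymes lie above 0.

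The scaffold genes were the class with the lowest median log2FC, -1.23, which with 3 genes is the value of Aimp1. Without DMSO replicate 1 the median was -0.59, close to the -0.50 of the synthetases of the complex. Eef1e1 (chr13:38645691-38659028 of GRCm38.p6), also named p18 or AIMP3, encodes the scaffold protein related to translation elongation factor 1. Its level was 288 FPKM in DMSO replicate 1, 146 FPKM in DMSO replicate 2, 57.03 FPKM in treated replicate 1 and 57.19 FPKM in treated replicate 2. The treated replicates were thus nearly equal and far below both controls, which themselves differed. The log2FC of Eef1e1 was -2.11 by edgeR (SE 0.48, edgeR adjusted p = 0.333). DESeq2 with transcript lengths put it at -2.13 (SE 0.50, DESeq2 adjusted p = 0.00408). Its adjusted p was as low as 0.000288 and as high as 0.992 among the alternatives. Without DMSO replicate 1 it was -1.35 (adjusted p = 0.139 by edgeR).

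Aimp2 (chr5:143902704-143909839) encodes p38, the core scaffold protein. Its level was 321 and 244 FPKM in the control replicates and 150 and 169 FPKM in the treated replicates, and the groups did not overlap. The log2FC of Aimp2 was -0.96 (SE 0.38, edgeR adjusted p = 0.333), and -0.59 without DMSO replicate 1. The FPKM ratio of Aimp2 to Eef1e1 was 1.11 and 1.67 in the control replicates and 2.63 and 2.96 in the treated replicates. The span of Aimp2 overlaps that of Eif2ak1, the heme-regulated eIF2α kinase, and no counting by strand is stated in the sources used here, so its counts are less certain than those of Eef1e1. Aimp1 (chr3:132660498-132684390), which encodes p43, the precursor of the cytokine EMAP II, had 29.6 FPKM in DMSO replicate 1 but 8.35 FPKM in DMSO replicate 2, with 7.85 and 10.9 FPKM in the treated replicates. Its difference therefore rested on DMSO replicate 1, with a log2FC of -1.23 (SE 0.72, edgeR adjusted p = 0.422) over all libraries and 0.17 without that library. Aimp1 overlaps Tbck.

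The 8 synthetases of the complex all had estimates below 0, with a median log2FC of -0.83, and 6 of them were lower without overlap between the groups, against 28.3% of all genes. All 8 were still below 0 without DMSO replicate 1, with a median of -0.50. With the 3 scaffold genes, 11 of 11 genes of the complex had a lower estimate over all libraries and 10 of 11 without DMSO replicate 1, with medians of -0.96 and -0.59. Rars (chr11:35808381-35834528), the arginyl-tRNA synthetase and most abundant enzyme of the list, had 217 and 169 FPKM in the control replicates against 85.5 and 99.5 FPKM in the treated replicates. Its log2FC was -1.22 (SE 0.38, edgeR adjusted p = 0.333), and -0.87 without DMSO replicate 1. For Eprs (chr1:185361417-185428360), the glutamyl-prolyl enzyme, the levels were 36.8 and 31.1 FPKM in control and 19.2 and 20.1 FPKM in treated replicates. Each treated value of Eprs was thus under each control value, with a log2FC of -0.95 (SE 0.36, edgeR adjusted p = 0.333) and -0.66 without DMSO replicate 1.

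Lars (chr18:42202298-42262237), the leucyl-tRNA synthetase that also senses leucine for mTORC1, was among the least abundant enzymes of the complex. Its level was 2.95 and 2.99 FPKM in the control replicates and 1.23 and 1.29 FPKM in the treated replicates, from 199, 192, 90 and 90 fragments. The replicates of Lars were nearly equal within each group, and its log2FC was -1.38 (SE 0.56, edgeR adjusted p = 0.333), and -1.25 without DMSO replicate 1. Qars, the glutaminyl enzyme, had 43.9 FPKM in DMSO replicate 1, 18.8 FPKM in DMSO replicate 2 and 14.6 and 18.0 FPKM in the treated replicates. Most of its log2FC of -1.07 (SE 0.51, edgeR adjusted p = 0.355) came with DMSO replicate 1, and the value was -0.25 without it.

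Dars, the aspartyl enzyme, had 80.2 and 60.8 FPKM in control against 52.6 and 43.3 FPKM in treated replicates, a log2FC of -0.72. Kars, the lysyl enzyme, had 67.6 and 53.4 FPKM against 37.3 and 44.1 FPKM, a log2FC of -0.72 as well. Neither gene overlapped between the groups, but the gap was smaller than the distance between the control replicates in both, and without DMSO replicate 1 the log2FC was -0.35 for Dars and -0.38 for Kars. Iars, the isoleucyl enzyme, had 46.3 and 43.2 FPKM in control and 35.2 and 45.5 FPKM in treated replicates, so the groups overlapped, and its log2FC was -0.30, or -0.10 without DMSO replicate 1. Mars, the methionyl enzyme, was low, with 1.10 and 2.25 FPKM in control and 2.32 and 0.61 FPKM in treated replicates. Its replicates differed more within each group than the groups did, and its span overlaps Ddit3, a stress gene present at 96.3 to 242 FPKM in these libraries, which makes the counts of Mars uncertain.

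The 12 cytosolic enzymes outside the complex were more mixed. Of the 11 that were tested, 8 had a lower and 3 a higher estimate, the median log2FC was -0.67, and none had an unadjusted p under 0.05, against 10.1% of all genes lower and 4.72% higher. When DMSO replicate 1 was left out, 6 of 11 had a lower estimate and the median was -0.25. Nars, the asparaginyl enzyme, had 66.3 and 49.0 FPKM in control and 34.7 and 36.9 FPKM in treated replicates, with no overlap. The log2FC of Nars was -0.85 (SE 0.38, edgeR adjusted p = 0.346), and -0.45 without DMSO replicate 1. Hars, the histidyl enzyme, had 22.6 and 17.0 FPKM against 14.1 and 9.36 FPKM, a log2FC of -0.91 (SE 0.47, edgeR adjusted p = 0.379) that was -0.54 without DMSO replicate 1. The spans of Hars and its mitochondrial counterpart Hars2 share 4 bases on chromosome 18. Yars, the tyrosyl enzyme, had 12.4 FPKM in DMSO replicate 1 and 4.74 FPKM in DMSO replicate 2, against 3.03 and 4.96 FPKM in treated replicates. The groups overlapped for Yars, and its log2FC of -1.30 (SE 0.64, edgeR adjusted p = 0.365) was -0.25 without DMSO replicate 1. Tars, the threonyl enzyme, had 16.0 and 19.3 FPKM in control and 13.8 and 10.5 FPKM in treated replicates. Unlike most members, Tars was lower in DMSO replicate 1 than in DMSO replicate 2, and its log2FC was -0.67 with and -0.67 without DMSO replicate 1. Wars, the tryptophanyl enzyme, had 9.80 and 8.89 FPKM in control and 4.31 and 8.05 FPKM in treated replicates, with a log2FC of -0.84, or -0.54 without DMSO replicate 1. The treated replicates of Wars differed by more than the group means.

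The subunits of cytosolic phenylalanyl-tRNA synthetase had estimates of opposite sign. Farsa, the α subunit (chr8:84856969-84869257), had 6.54 and 5.75 FPKM in control and 2.86 and 3.42 FPKM in treated replicates. Farsb, the β subunit (chr1:78417958-78488897), had 30.6 and 49.9 FPKM in control and 70.7 and 64.4 FPKM in treated replicates. Neither subunit overlapped between the groups, with the α subunit lower and the β subunit higher in treated embryos. The log2FC was -1.12 for Farsa (SE 0.57, edgeR adjusted p = 0.379) and 0.64 for Farsb (SE 0.36, edgeR adjusted p = 0.415). Without DMSO replicate 1 the values were -0.87 and 0.45. The FPKM ratio of Farsb to Farsa was 4.68 and 8.69 in the control replicates and 24.7 and 18.8 in the treated replicates. Both ratios of the treated embryos thus exceeded both ratios of the controls, although with 2 libraries a group the smallest p of a two-sided exact permutation test is 0.333. Farsb holds an E-box upstream of its start, in the stretch printed above, and its span overlaps Sgpp2.

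The remaining cytosolic enzymes showed little or opposite difference. Gars, the glycyl enzyme, had 9.38 and 8.62 FPKM in control and 14.4 and 14.3 FPKM in treated replicates. Its groups were far apart relative to the spread of either, with a log2FC of 0.52 (SE 0.42, edgeR adjusted p = 0.549) and 0.73 without DMSO replicate 1. Aars, the alanyl enzyme, had 9.73 and 7.79 FPKM against 9.03 and 8.29 FPKM. Sars, the seryl enzyme, had 5.82 and 4.22 FPKM against 5.19 and 4.64 FPKM. In both Aars and Sars the treated values lay between the control values. Cars, the cysteinyl enzyme, was low at 1.57 and 1.49 FPKM in control and 1.73 and 2.61 FPKM in treated replicates, from 73 to 143 fragments. Vars, the valyl enzyme, was listed with 31, 0, 7 and 1 fragments in the 4 libraries and was not tested. A count of 0 is compatible with up to 3 fragments, and intervals of this kind cover counting error only.

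Of the 16 mitochondrial enzymes, 14 were tested, 12 with a lower and 2 with a higher estimate, and their median log2FC was -0.72. Without DMSO replicate 1, 6 of 15 had a lower estimate and the median was 0.20, so the class did not keep its direction. Cars2 (chr8:11514017-11550781), the cysteinyl enzyme of mitochondria, had 28.4 and 16.3 FPKM in control and 4.04 and 10.4 FPKM in treated replicates. The groups did not overlap for Cars2, and its log2FC was -1.82 (SE 0.61, edgeR adjusted p = 0.333), and -1.18 without DMSO replicate 1. By DESeq2 its adjusted p was 0.0501 with and 0.0498 without the transcript lengths, on either side of the threshold, and it lay between 0.00789 and 0.992 over all alternatives. Yars2 (chr16:16302965-16309640), the tyrosyl enzyme, had 12.7 FPKM in DMSO replicate 1, 2.38 FPKM in DMSO replicate 2 and 0.45 and 1.43 FPKM in the treated replicates, from 313, 55, 12 and 36 fragments. Its log2FC of -3.24 (SE 1.06, edgeR adjusted p = 0.333) was the lowest of the tested members, and it was -1.33 without DMSO replicate 1. DESeq2 gave Yars2 no adjusted p. edgeR without a filter on low counts gave Yars2 an adjusted p of 0.00921, within a range from 0.00279 to 0.992 over the alternatives.

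Fars2, the phenylalanyl enzyme of mitochondria, which works as a single chain, had 2.44 FPKM in DMSO replicate 1, 12.1 FPKM in DMSO replicate 2 and 16.3 and 16.9 FPKM in the treated replicates. It was the mitochondrial member with the highest estimate, a log2FC of 1.09 (SE 0.72, edgeR adjusted p = 0.468), which was 0.39 without DMSO replicate 1. Lars2, the most abundant mitochondrial enzyme, had 46.9 and 50.6 FPKM in control and 52.6 and 63.7 FPKM in treated replicates. Its log2FC was 0.11 (SE 0.35, edgeR adjusted p = 0.89), and 0.20 without DMSO replicate 1. Mars2, an enzyme gene without introns, had 6.22 and 7.33 FPKM in control and 3.81 and 6.50 FPKM in treated replicates. The log2FC of Mars2 was -0.53 (SE 0.49, edgeR adjusted p = 0.599), and -0.51 without DMSO replicate 1. Tars2 had 3.31 and 4.01 FPKM in control and 1.36 and 3.23 FPKM in treated replicates, a log2FC of -0.83 (SE 0.67, edgeR adjusted p = 0.547) that was -0.83 without DMSO replicate 1 too. Mars2 and Tars2 kept their direction with each library left out, but in both the treated replicates differed by more than the group means.

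For 7 other mitochondrial enzymes the estimate was below 0 over all libraries and above 0 without DMSO replicate 1, and in each of them DMSO replicate 1 was the library with the highest level. They were Ears2, Hars2, Iars2, Nars2, Rars2, Sars2 and Wars2. Rars2 had 5.89 FPKM in DMSO replicate 1, 2.39 FPKM in DMSO replicate 2 and 3.94 and 3.82 FPKM in the treated replicates. Wars2 had 2.88 FPKM in DMSO replicate 1, 0.28 FPKM in DMSO replicate 2 and 0.35 and 1.45 FPKM in the treated replicates, and its log2FC moved from -1.06 to 1.67 without DMSO replicate 1. Nars2 had 82 fragments in DMSO replicate 1 and 15, 19 and 15 in the other libraries, with a log2FC of -1.83 (SE 1.23, edgeR adjusted p = 0.476) over all libraries and 0.02 without DMSO replicate 1. Ears2 had 4.14 and 1.72 FPKM in control and 2.22 and 2.13 FPKM in treated replicates. The levels of Hars2, Iars2 and Sars2 lay between 0.25 and 5.24 FPKM. Pars2, Aars2 and Vars2 were near the limit of detection, with at most 22, 15 and 11 fragments in any library, and at this depth no difference was detectable in them. Aars2 was seen in DMSO replicate 1 only and listed at 0 in the other libraries.

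The classes were also summed on the FPKM scale. Summed over the 3 scaffold genes the level was 638 and 398 FPKM in the control replicates and 215 and 237 FPKM in the treated replicates. The 8 synthetases of the complex summed to 495 and 382 FPKM in control and 248 and 272 FPKM in treated replicates. In both classes each treated sum was below each control sum, and the mean of the treated libraries was 0.436 times the mean of the controls for the scaffold genes and 0.593 times for the synthetases of the complex. Against DMSO replicate 2 alone these ratios were 0.568 and 0.681. The other 12 cytosolic enzymes summed to 191 and 177 FPKM in the control replicates and 174 and 167 FPKM in the treated replicates. On TPM, which has the same total in every library, they summed to 231 and 237 in control and 241 and 225 in treated replicates, with overlap. The sums of the scaffold genes and of the synthetases of the complex stayed lower in both treated libraries on TPM. The mitochondrial enzymes summed to 122 and 102 FPKM in control and 91.8 and 113 FPKM in treated replicates, and here the groups overlapped. The ratio of the cytosolic to the mitochondrial sum was 5.63 and 5.48 in the control replicates and 4.59 and 3.88 in the treated replicates. These sums are carried by their most abundant genes, and the difference between the classes was not tested.

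**Figure D3:**
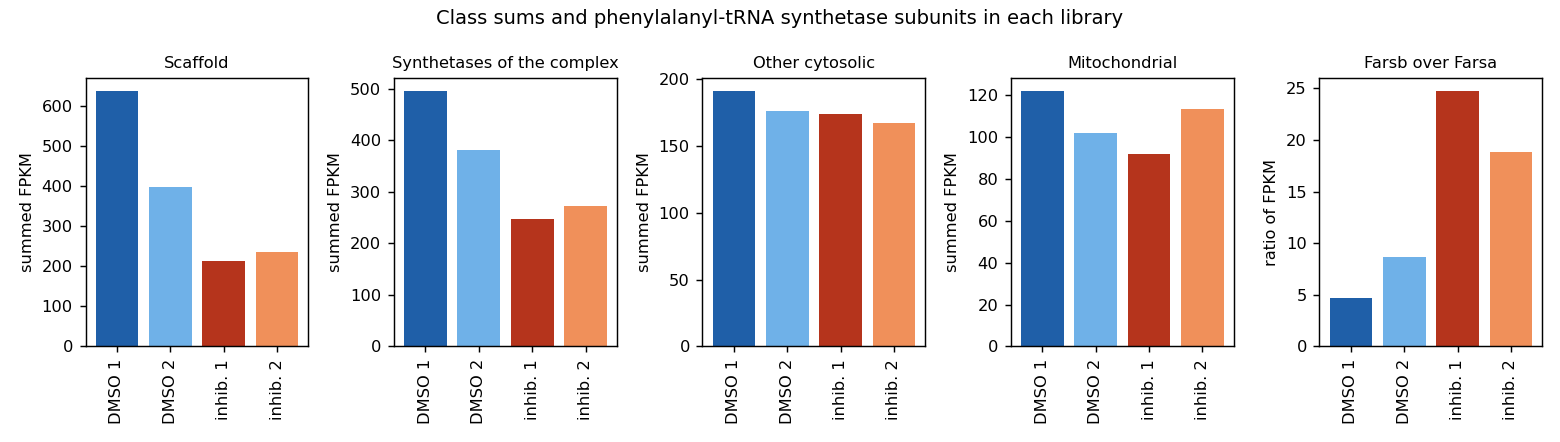
Summed FPKM of each class in each of the 4 libraries, with the FPKM ratio of Farsb to Farsa in the last panel, 1 bar for each library and axes from 0. The scaffold genes and the synthetases of the complex are lower in both treated libraries, the other cytosolic enzymes lie between 167 and 191 FPKM in every library, and the ratio is 4.68 and 8.69 in control against 24.7 and 18.8 in treated embryos.

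Enzymes for the same amino acid differed between the compartments. Each mitochondrial enzyme was set beside its cytosolic counterpart, with Eprs for both Ears2 and Pars2, and Farsa for Fars2. The cytosolic enzyme had the higher FPKM in every library in 10 of the 16 pairs, with the reverse in every library for cysteine, leucine and methionine. In 14 pairs both enzymes were tested, and the mitochondrial estimate was below the cytosolic one in 8 of them. For leucine the replicates were close within each group. The FPKM ratio of Lars2 to Lars was 15.9 and 16.9 in the control replicates and 42.7 and 49.4 in the treated replicates, and both treated ratios exceeded both control ratios by far more than the replicates differed. For cysteine the ratio was lower in treated embryos, with Cars2 to Cars at 18.1 and 10.9 in control and 2.34 and 3.98 in treated replicates. Here the control ratios differed by more than the gap between the groups.

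**Figure D4:**
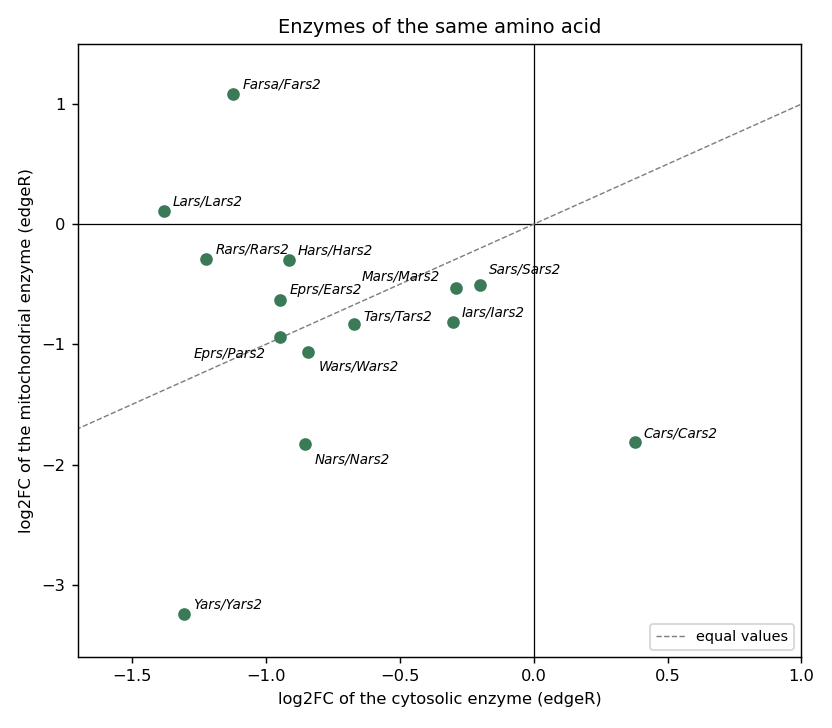
log2FC (edgeR) of the cytosolic enzyme on the horizontal and of the mitochondrial enzyme on the vertical axis for the 14 pairs with both genes tested; the dashed line marks equal values. Most pairs lie in the lower left with both values below 0, Lars with Lars2 and Farsa with Fars2 have a mitochondrial value above 0, and Cars with Cars2 has a cytosolic value above 0.

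Among the 5 members with an E-box, the log2FC was -0.18 for Aars, 0.64 for Farsb, -0.30 for Iars, -0.67 for Tars and -0.63 for Ears2. The 5 members with a CARE element had values of -0.18 for Aars, 0.52 for Gars, -0.30 for Iars, -0.67 for Tars and -1.30 for Yars. Neither group of 5 had a common direction, and neither held any of the 7 members with an unadjusted p under 0.05, of which Rars and Lars have no entry in the promoter table. A match is a description of the letters and not a bound site.

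The other genes of tRNA charging and delivery were read from a list of 24, of which 22 were tested. Of these, 7 were lower at an unadjusted p under 0.05 and none was higher, against 10.1% and 4.72% of all genes, and the median log2FC was -0.26. Without DMSO replicate 1, 3 of 23 were lower and none was higher at this p, against 7.36% and 6.44% of all genes, and the median was -0.26. DESeq2 with transcript lengths called 3 of the genes, including Dtd1 and Trnt1, all down-regulated (2.36% of all genes). Dtd1, the deacylase that removes D-amino acids from tRNA, had 19.4 and 12.7 FPKM in control and 2.77 and 5.28 FPKM in treated replicates, a log2FC of -2.16 (SE 0.61, adjusted p = 0.333 by edgeR and 0.0329 by DESeq2). Trnt1, which adds the terminal CCA to which the amino acid is joined, had 206 and 152 FPKM against 82.1 and 82.1 FPKM, a log2FC of -1.29 (SE 0.39, adjusted p = 0.333 by edgeR and 0.0474 by DESeq2). Neither Dtd1 nor Trnt1 overlapped between the groups, and without DMSO replicate 1 their log2FC was -1.66 and -0.89. Eif2ak4, which encodes the kinase GCN2 that is activated by uncharged tRNA, had 2.27 and 3.73 FPKM in control and 7.44 and 5.75 FPKM in treated replicates, a log2FC of 1.001 (SE 0.45, edgeR adjusted p = 0.347), and 0.78 without DMSO replicate 1.

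ATF4 and its textbook targets, a list of 19 with 18 tested, showed no common direction, with 9 lower and 9 higher estimates and a median log2FC of -0.08. At an unadjusted p under 0.05, 3 were lower and 1 was higher, against 10.1% and 4.72% of all genes. Without DMSO replicate 1, 1 was lower and 2 were higher, against 7.36% and 6.44% of all genes, and the median was 0.16. Phgdh, the first enzyme of serine synthesis, had 30.6 and 9.88 FPKM in control and 5.77 and 5.93 FPKM in treated replicates, and was the only gene of this list that DESeq2 called (log2FC by edgeR -2.00, SE 0.65, adjusted p = 0.333 by edgeR and 0.0384 by DESeq2), among 2.36% of all genes called down-regulated. The log2FC of Phgdh was -0.75 without DMSO replicate 1. Psat1, a later enzyme of that pathway, had 300.4 and 175 FPKM against 117 and 125 FPKM. Ddit3, which encodes the stress factor CHOP, had 96.3 and 137 FPKM in control against 219 and 242 FPKM in treated replicates. The groups did not overlap for either gene, with Psat1 lower (log2FC -1.15, and -0.53 without DMSO replicate 1) and Ddit3 higher (log2FC 0.85, and 0.75 without that library). Atf4 had 149 and 114 FPKM in control and 87.2 and 116 FPKM in treated replicates, a log2FC of -0.54, and -0.18 without DMSO replicate 1.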

How the data were processed

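Late two-cell mouse embryos were sequenced in 4 libraries, 2 with DMSO and 2 with 10074-G5, grouped and numbered by their labels. The study calls them biological replicates. The authors aligned read pairs to mm10 with STAR 2.7.10, kept uniquely mapped reads and ran RSEM 1.3.3. The expected counts deposited by the authors are not normalized. The FPKM and TPM deposited by the authors are scaled to effective transcript length and to the library, and the deposited effective lengths were used in 1 alternative. Expected counts were rounded, filtered with filterByExpr (minimum count 10, minimum total 15; 13549 genes left) and scaled with TMM factors of 0.873, 1.04, 1.04 and 1.06. They were tested with edgeR 4.0.16 (quasi-likelihood, robust, R 4.3.3) with Benjamini-Hochberg adjustment over all tested genes. A call needs |log2FC| > 1 and an adjusted p under 0.05. The standard error is the size of the log2FC divided by the square root of the F statistic. SD is over 2 libraries. The alternatives used DESeq2 1.42.0, limma 3.58.1 on log2(FPKM + 1) and log2(FPKM + 0.1), other scalings and filters, the replicate number as a block, and each library left out. The main edgeR fit and DESeq2 without transcript lengths were tested on simulated data, and the other alternatives were not. Recovery of changed genes was required there only at a spread lower than that of these libraries. The members, gene lists, named genes and tests were chosen with earlier results of these data known. Full values are given for the scaffold genes, the 8 cytosolic and 6 mitochondrial enzymes with the smallest p, and any member called. Other members are given as levels, with a log2FC where a sentence turns on it, and Farsb, Gars and Lars2 were given full values after these were seen. A gene of the tRNA list that the naming rule selects is not reported here. Eif2ak4 and Atf4 were named after their values were seen. Gene spans and promoters come from RefSeq on GRCm38.p6, the assembly of mm10. Same-numbered libraries had deviations with a correlation of -0.07 over genes, and the number was not taken as a pairing.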

Additional observations from a re-analysis of the deposited data

How the results depend on the processing

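The number of members called lower was 0 by edgeR, 1 by DESeq2 with transcript lengths, 2 by DESeq2 on all genes with a count, 3 by DESeq2 on the genes of the edgeR test and 3 by edgeR without a filter on low counts. Over the fits that leave out 1 library it ranged from 0 to 13, highest without DMSO replicate 2, and the number called higher from 0 to 1. Members lower at an unadjusted p under 0.05 numbered 7, and over these fits from 2 to 19, with 0 to 2 members higher. With the replicate number as a block, 4 members were lower (6.66% of all genes) and 1 higher (6.61%) at this p, and no member was called. The pairing by number is not given by the labels as a shared litter or day. Over the fits that leave out 1 library the median log2FC ranged from -1.16 to -0.35 for all members and -1.05 to -0.38 for cytosolic enzymes. The median over these fits ranged from -1.08 to 0.20 for mitochondrial enzymes and -1.92 to -0.59 for scaffold genes. For mitochondrial enzymes it was -0.24 on log2(FPKM + 1). Members with both treated libraries below both controls numbered 17 on TMM-scaled CPM (28.3% of all genes), 16 on FPKM and 15 on TPM. Members with both above numbered 3 on TMM-scaled CPM (28.9% of all genes) and 5 on FPKM and on TPM. The shares of all genes on FPKM and TPM were not computed. Of 496 values of single members under an alternative, 16 turned direction, in 12 members. With each library left out, the log2FC ranged from -0.436 to 0.152 for Aars, -0.519 to 0.217 for Sars, -1.20 to 0.333 for Ears2, -1.05 to 0.397 for Hars2, -1.45 to 0.353 for Iars2, -2.61 to 0.0204 for Nars2, -0.869 to 0.699 for Rars2, -0.967 to 0.195 for Sars2, -2.40 to 1.67 for Wars2 and -1.92 to 0.17 for Aimp1, the highest value always without DMSO replicate 1. For Mars it ranged from -1.54 to 0.379, above 0 without DMSO replicate 2 (0.15) or treated replicate 2, and for Lars2 from -0.0183 to 0.275. Hars2 was 0.21 without treated replicate 2. Rars2 was 0.0139 on log2(FPKM + 1) and 0.0433 on log2(FPKM + 0.1). The cause of these differences was not tested. With 2 libraries a group, 1 library decides many values, and members under about 1 FPKM are limited by depth.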
